A study of Mus musculus with 12 samples.

Results

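The 12S ribosomal RNA of the mouse mitochondrial genome, encoded by mt-Rnr1 (ENSMUSG00000064337.1), was followed base by base in heart RNA with and without the protein PTCD1. Its members are the 955 bases of the gene on the plus strand at chrM:70-1024 of mm10, of 16292 bases that the per-base tables cover, together with the mt-Rnr1 rows of the gene count tables. Its bases were set by position and not by a measured value, but the choice was made with earlier results of these data known. The 12 libraries form 4 groups of 3: hearts of PTCD1 knockout mice (KO) and of wild-type mice (WT), each untreated or after treatment of the RNA with CMC. In all groups cytoplasmic ribosomal RNA had been removed from total RNA with a Ribo-Zero kit before TruSeq libraries were made. The labels used here do not state age, sex or strain, how the gene was knocked out, or whether replicates are separate mice, and p-values measure only the spread between these samples, which may be technical.

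The 12S rRNA is the RNA core of the small subunit of the mitochondrial ribosome and is cut out of a long precursor in which the transfer RNA mt-Tf precedes it and the transfer RNA mt-Tv follows it, with the 16S rRNA gene mt-Rnr2 beyond. Near its 3′ end a stem with a GGAA loop carries a pair of dimethylated adenosines, which are made by TFB1M and block the Watson-Crick face of the base. PTCD1 is a pentatricopeptide repeat protein of mitochondria that is known for its part in 16S rRNA and large subunit assembly. CMC is a carbodiimide that binds uridine, guanosine and pseudouridine; after an alkaline wash it stays mainly on pseudouridine, where reverse transcriptase stops or misreads.

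The ends of the gene are shown because depth differed there between KO and WT, and the first line below gives the 5′ end at chrM:60-109 with the first 9 bases of the gene in capitals. The second line shows the 3′ end at chrM:985-1034, with the GGAA loop at chrM:1004-1007 in capitals. This GGAA is 1 of 3 in the gene and was taken because 10 uninterrupted base pairs, G-T pairs included, flank it, against 0 for the others. The third line, chrM:895-917, holds in capitals the bases with the highest mismatch shares. All are read 5′ to 3′ on the plus strand of mm10.
5′ end: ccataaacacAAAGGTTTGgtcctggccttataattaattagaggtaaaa
3′ end: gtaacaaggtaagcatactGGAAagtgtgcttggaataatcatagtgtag
C904 and C907: gtacgcacaCacCgcccgtcacc

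Libraries held 10389398 to 12462093 gene counts, of which 2683284 to 3187748 fell in nuclear genes. Ptcd1 checks the labels: it stood at 28, 17 and 19 counts in untreated KO and at 78, 71 and 74 in untreated WT, and at 20 to 23 against 74 to 103 after CMC. Over nuclear genes, replicate pairs differed by a chi-square of 1.12 to 1.39 per degree of freedom, apart from WT CMC replicate 3, which differed from its partners by 2.08 and 2.43. Per 1000000 nuclear counts the 8 cardiomyocyte markers summed to 127000 to 129000 in untreated KO and 190000 to 191000 in untreated WT. Of these 8, 7 fell and 1 rose. Of the other marker lists in KO against WT, 1 of 4 endothelial, 2 of 4 fibroblast and 2 of 4 leukocyte genes rose, while 2 endothelial, 2 fibroblast, 3 of 4 smooth muscle and pericyte and 3 of 3 erythroid genes fell. Over all genes tested, 57.9% were called in untreated KO against WT, so calls among so few markers say little. The 3 hepatocyte genes, which a heart should lack, summed to at most 1.66 per 1000000. In such bulk RNA fewer cells of a type and less RNA per cell cannot be told apart, and the part of these markers in the results below was not tested.

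KO hearts held more 12S rRNA than WT hearts, 3.80-fold untreated and 3.90-fold after CMC. mt-Rnr1 had 2040883, 2035300 and 2012826 counts in untreated KO libraries and 492362, 475803 and 485889 in untreated WT libraries. After CMC it had 1881542, 1674132 and 1573057 counts in KO and 433327, 457382 and 453249 in WT. All 6 KO libraries lay above all 6 WT libraries, and the replicates of a group lay within a narrow range. Per 1000 nuclear counts this was 667.4 ± 10.3 (SD, n = 3) in untreated KO and 161.8 ± 1.63 in untreated WT, and 598.5 ± 13.4 and 145.0 ± 3.37 after CMC. In the edgeR quasi-likelihood fit across all genes, the log2 fold change of KO over WT was 1.93 untreated (SE 0.02, adjusted p = 2.24e-194) and 1.96 after CMC (SE 0.06, adjusted p = 1.54e-21). Of all genes tested, 57.9% were called in the untreated comparison and 54.3% after CMC, so a call alone sets mt-Rnr1 apart from few genes. The authors' deposited table gives mt-Rnr1 a log2 fold change of 1.94 with a standard error of 0.02.

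The ratio of counts of the small to the large ribosomal RNA was inverted between the genotypes. The 16S rRNA mt-Rnr2 had between 739364 and 757958 counts in untreated KO libraries, against 5068018 to 5263339 in untreated WT libraries. Per base of the deposited gene lengths, 12S over 16S counts came to 4.50 ± 0.058 (SD, n = 3) in untreated KO and 0.156 ± 0.00204 in untreated WT. After CMC the ratio was 4.01 ± 0.0874 in KO and 0.150 ± 0.0018 in WT. Counts per base were thus higher for 12S than for 16S rRNA in every KO library and lower in every WT library. The neighbouring transfer RNAs were nearly absent from the count tables, with 0 to 2 counts of mt-Tf and 0 or 1 of mt-Tv per library. Reads did cover the end of mt-Tf: depth at base 68 was 1814 to 1954 in untreated KO and 242 to 310 in untreated WT.

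**Figure D1:**
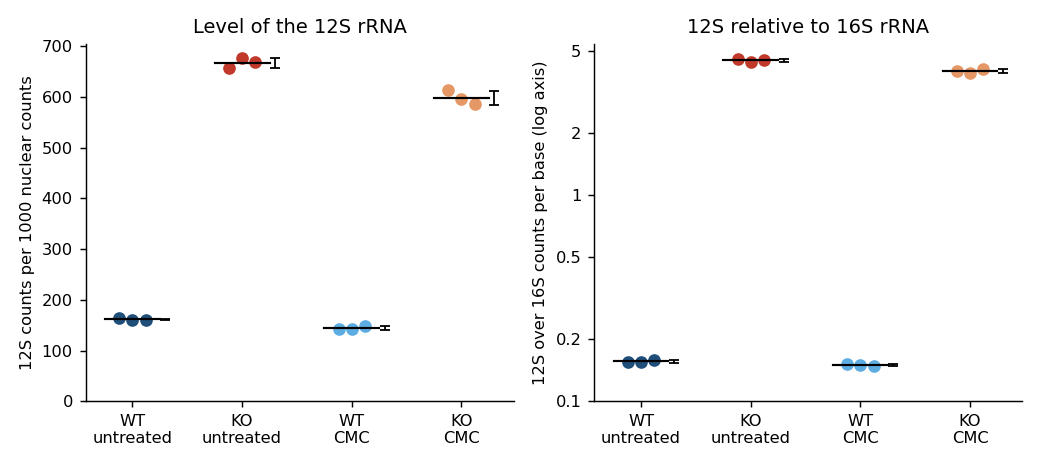
Level of mt-Rnr1 by group: the left panel gives 12S counts per 1000 nuclear counts and the right panel 12S over 16S counts per base on a log axis. Dots are libraries, horizontal lines the means and whiskers the SD of 3 libraries; KO libraries lie at 586.2 to 677.2 on the left and WT libraries at 142.7 to 163.6.

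CMC lowered the 12S level slightly in both genotypes. In KO the log2 fold change of CMC against untreated was -0.14 (SE 0.02, edgeR adjusted p = 1.18e-06) and in WT it was -0.19 (SE 0.05, edgeR adjusted p = 0.0454). Over all genes 12.3% were called in KO and 2.15% in WT. The WT call was lost without any of the untreated WT libraries (adjusted p = 0.183 without replicate 1, 0.136 without replicate 2, 0.138 without replicate 3) and without WT CMC replicate 1 (adjusted p = 0.245). It was also lost with library sizes from nuclear genes (adjusted p = 0.0507), and a joint edgeR fit of all 12 libraries ended the KO call (adjusted p = 0.0594). The CMC effects of KO and WT differed by 0.04 (SE 0.07, edgeR adjusted p = 0.865), where 1.46% of all genes were called.

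Of proteins that modify the 12S rRNA, help assemble its subunit, cut the precursor or stabilise mitochondrial messenger RNAs, 16 were listed and all tested. In untreated KO 3 rose and 3 fell, while 10 did not pass the test, with a median log2 fold change of -0.02 beside 0.00 over all genes, of which 57.9% were called. Elac2, the RNase Z that cuts behind transfer RNAs, rose from 82, 65 and 78 counts in WT to 124, 143 and 182 in KO (log2 0.86, SE 0.12, adjusted p = 6.39e-11). Trmt10c, a subunit of mitochondrial RNase P (log2 0.51, adjusted p = 9.76e-05), and Nsun4, which makes a 5-methylcytidine in 12S rRNA (0.37, adjusted p = 0.00378), also rose. Trmt2b, a methyltransferase that makes 5-methyluridine, fell (log2 -0.61, adjusted p = 3.08e-10), as did the assembly factor Rbfa (-0.61, adjusted p = 1.27e-06). Tfb1m, which dimethylates the GGAA loop, fell from 35, 27 and 36 counts in WT to 22, 24 and 20 in KO (log2 -0.71, SE 0.23, adjusted p = 0.00586). After CMC 2 of the 16 rose and 5 fell, where 54.3% of all genes were called. Elac2 (log2 0.75) and 1110008L16Rik (0.63), an older symbol of the RNase P subunit Prorp, rose. Trmt2b (-0.51), Rbfa (-0.46), Mettl17 (-0.80), Ybey (-0.94) and Hsd17b10 (-0.35, adjusted p = 0.00173) fell. Tfb1m (-0.16, adjusted p = 0.541), Nsun4 (0.24, adjusted p = 0.145) and Trmt10c (0.27, adjusted p = 0.098) did not pass the test after CMC. Of abundant members without a call in untreated hearts, Lrpprc, which stabilises mitochondrial messenger RNAs with Slirp, had a log2 fold change of 0.01, Slirp -0.03 and Hsd17b10, another RNase P subunit, -0.10.

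Read depth over the 12S rRNA was high but uneven. Mean depth over the 955 bases was 321344, 318785 and 316200 reads in untreated KO and 77489, 74957 and 76558 in untreated WT. After CMC it was 286271, 264026 and 248050 in KO and 68520, 72369 and 71523 in WT. No deposited depth exceeded 1000000 in any library, the highest being 999184, and 5 of the 6 KO libraries reached at least 900000 at 18 to 37 bases of the gene. Depth summed to 149.6 to 151.1 bases per counted fragment in 11 libraries and to 145.3 in KO CMC replicate 1. Whether a limit on depth lowered the highest values was not tested. Leaving out these bases as tested positions changed the counts of called positions for relative depth and steps given below by at most 1. The gene mean still included them, so this cannot show how a limit would affect relative depth.

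Relative depth is the depth at a base over the mean depth of the gene in the same library. Of 10 windows along the gene, the highest was chrM:470-569, at 2.03 ± 0.0198 (SD, n = 3) in untreated KO, 2.02 ± 0.033 in untreated WT, 2.61 ± 0.0795 in KO after CMC and 2.09 ± 0.344 in WT after CMC. The lowest of 100 bases was chrM:870-969, at 0.0969 ± 0.00321 in untreated KO and 0.0861 ± 0.00425 in untreated WT. Only the last 55 bases, chrM:970-1024, were lower, at 0.0035 and 0.00311. The windows before chrM:670 all stood above those behind it, in every group. The deepest base was 155 in all untreated libraries, 497 or 498 in KO after CMC, and 171 in WT CMC replicates 1 and 2 and 498 in replicate 3.

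**Figure D2:**
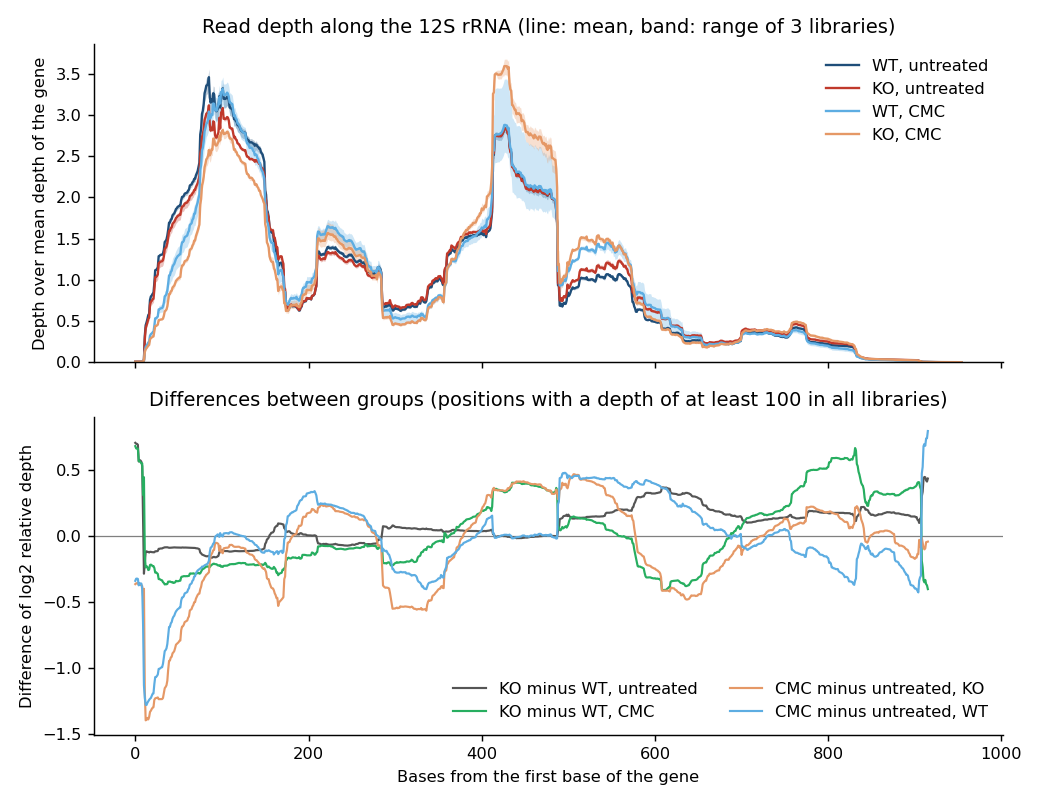
Depth over the mean depth of the gene (upper panel) and differences of log2 relative depth between groups (lower panel) against the distance in bases from the first base of the gene. Lines are means and bands the range of 3 libraries; after CMC both genotypes lie low near the 5′ end, and KO after CMC stands highest around 460 bases, where the WT CMC libraries differ among themselves.

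Among bases deep enough to test, untreated KO and WT profiles were called different, by at least 0.5 on the log2 scale, only at the 5′ edge. Of the 916 bases with a depth of at least 100 in each library, 9 were called (0.983%, against 5.14% of all mitochondrial positions tested), and all 9, chrM:70-78, were higher in KO. At these bases relative depth was 0.00615 to 0.0066 in KO and 0.00354 to 0.00462 in WT, so the groups did not overlap and every library stood far below its gene mean. The largest difference was 0.70 at base 70 (SE 0.10, limma adjusted p = 0.00082), and the count was 4 without WT untreated replicate 1 and 4 when depth was scaled by the median of the gene. Smaller differences were many: 649 bases passed the adjusted p alone. At chrM:990-995, too shallow in WT for a test here, relative depth was 0.000505 to 0.000542 in KO and 0.000233 to 0.000387 in WT.

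After CMC 64 of 920 bases were called between KO and WT (6.96%, against 11.2% of all positions), all higher in KO. They were the same first 9 bases, with a largest log2 difference of 0.68 at base 70 (SE 0.07, limma adjusted p = 0.00172), and a run of 55 bases at chrM:850-904. In that run relative depth was 0.246 to 0.27 in KO and 0.151 to 0.205 in WT, beside 0.226 to 0.238 in untreated KO and 0.195 to 0.216 in untreated WT. The count depended on single libraries. It was 9 without KO CMC replicate 2, 11 without WT CMC replicate 2, 34 without WT CMC replicate 1, 39 without KO CMC replicate 1 and 158 without WT CMC replicate 3. Scaled by the median instead of the mean depth of the gene, it was 122.

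CMC lowered depth behind the 5′ end in both genotypes. At chrM:79-122 relative depth fell from 1.24 ± 0.0102 (SD, n = 3) to 0.712 ± 0.056 in WT, with a largest log2 difference of -1.28 at base 83 (SE 0.03, limma adjusted p = 2.67e-05). In KO the run was chrM:81-139, where relative depth fell from 1.43 ± 0.0494 to 0.796 ± 0.0119, with a largest log2 difference of -1.40 at base 82 (SE 0.04, limma adjusted p = 8.44e-07). No CMC library overlapped an untreated one of its genotype there. In all 51 of 916 bases were called in WT (5.57%, against 9.92% of all positions), 44 lower and 7 higher, and 109 of 926 in KO (11.8%, against 22.7%), 103 lower and 6 higher. The 42 bases called in both genotypes were 82.4% of the WT calls and 38.5% of the KO calls. In KO, bases at chrM:235-236 and chrM:366-407 were called as well. At the latter relative depth went from 0.708 ± 0.0213 to 0.485 ± 0.0151, while WT stood at 0.679 ± 0.0167 and 0.551 ± 0.063. The higher bases were chrM:979-985 in WT and chrM:990-995 in KO. Without WT CMC replicate 3 the WT count was 98, and scaled by the median the KO count was 188.

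Whether CMC acted differently on the profile in KO and WT was tested in a fit of all 12 libraries, which was chosen after the data were seen. Of 916 bases 84 were called (9.89% of all mitochondrial positions were), 82 lower and 2 higher for the effect in KO minus that in WT. At chrM:650-724 relative depth fell from 0.501 ± 0.0077 (SD, n = 3) to 0.403 ± 0.0126 in KO, while in WT it went from 0.401 ± 0.00955 to 0.511 ± 0.106. The WT CMC libraries spread from 0.405 to 0.618, and the lowest lay within the untreated WT range of 0.394 to 0.412. The largest difference of effects in this run was -0.78 on the log2 scale at base 679 (SE 0.19, limma adjusted p = 0.0126). The count was 46 without WT CMC replicate 2 and 172 without WT CMC replicate 3, the library that stood apart over nuclear genes.

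At the 5′ end reads began in force only behind the annotated start. Base 70 was covered by 1893, 2023 and 1972 reads in untreated KO and 249, 300 and 320 in untreated WT, and base 85 by 158263 to 175603 and 42582 to 44275. The steepest step was from base 80 to base 81, where depth went from 7892, 8490 and 7980 to 84836, 92114 and 88872 in untreated KO and from 2489, 2097 and 2547 to 24857, 23977 and 24197 in untreated WT. In all 12 libraries base 81 was the first to reach 10% of the gene mean. The first 9 bases, in capitals in the sequence above, belong to a low plateau of depth that runs on from mt-Tf, in KO as in WT.

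The plateau before the gene was higher in KO relative to the 12S rRNA. Over the 10 bases before the start, chrM:60-69, depth (1 added) was 0.503%, 0.547% and 0.527% of the gene mean in untreated KO and 0.286%, 0.351% and 0.362% in untreated WT. After CMC it was 0.392%, 0.420% and 0.394% in KO and 0.268%, 0.272% and 0.235% in WT, with no overlap in either case. The log2 difference was 0.66 (SE 0.10, limma adjusted p = 0.00182) untreated and 0.64 (SE 0.08, limma adjusted p = 6.63e-04) after CMC. Among 73 ends of mitochondrial genes, 69.9% were called untreated and 57.5% after CMC, so a change at an end was common.

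Steps of depth from 1 base to the next were tested at the same bases. In untreated hearts 1 of 916 was called (0.109%, against 0.324% of all positions): from base 78 to base 79 depth rose 1.56 to 1.67-fold in KO and 2.05 to 2.32-fold in WT, a log2 difference of -0.43 (SE 0.06, limma adjusted p = 0.0123). This call was lost without KO untreated replicate 2 or 3, and 2 bases were called without WT untreated replicate 2. After CMC 0 of 920 steps were called between KO and WT (0.135% of all positions; 86 bases had an unadjusted p below 0.05), and 0 of 916 between CMC and untreated in WT (0.0965% of all; 301 at an unadjusted p below 0.05). Without WT CMC replicate 3 these counts were 3 and 6. In KO CMC changed 3 of 926 steps (0.324%, against 0.293% of all). The step from base 80 to 81 was 10.75 to 11.14-fold untreated and 5.35 to 7.21-fold after CMC, with a log2 difference of -0.78 (SE 0.12, limma adjusted p = 0.0045). The next step, from base 81 to 82, differed by -0.22 and that from base 989 to 990 by 0.59. For the difference of the CMC effects 0 steps were called (0.0451% of all; 225 at an unadjusted p below 0.05), and 9 without WT CMC replicate 3.

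Depth ran out before the 3′ end of the 12S rRNA. In untreated KO base 985 was covered by 812, 719 and 659 reads and base 1000 by 79, 74 and 77, and in untreated WT by 132, 149 and 109 and by 23, 13 and 13. After the loop depth was flat: over the last 10 bases, chrM:1015-1024, it was 17 to 22 in untreated KO, 6 to 9 in untreated WT, 17 to 22 in KO after CMC and 11 to 16 in WT after CMC. These bases lie under the depth of 100 that tests of single bases require and are given as counts only.

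Depth also dropped inside the GGAA loop, where the dimethylated adenosines lie. From base 1005 to base 1006 depth went from 39, 36 and 51 to 17, 17 and 19 in untreated KO and from 19, 8 and 11 to 11, 6 and 9 in untreated WT. After CMC it went from 53, 49 and 52 to 17, 23 and 15 in KO and from 15, 25 and 14 to 10, 12 and 9 in WT. Mean depth over the 4 bases behind the loop, chrM:1008-1011, was 0.243 ± 0.019 (SD, n = 3) of that over the 4 bases before it, chrM:1000-1003, in untreated KO and 0.510 ± 0.0926 in untreated WT. After CMC the ratio was 0.226 ± 0.0578 in KO and 0.334 ± 0.0395 in WT. KO libraries lay below WT libraries without overlap when untreated, and the ranges touched after CMC (0.187 to 0.293 in KO, 0.288 to 0.359 in WT). These ratios rest on 5.75 to 21.5 reads behind the loop per library and were not tested.

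**Figure D3:**
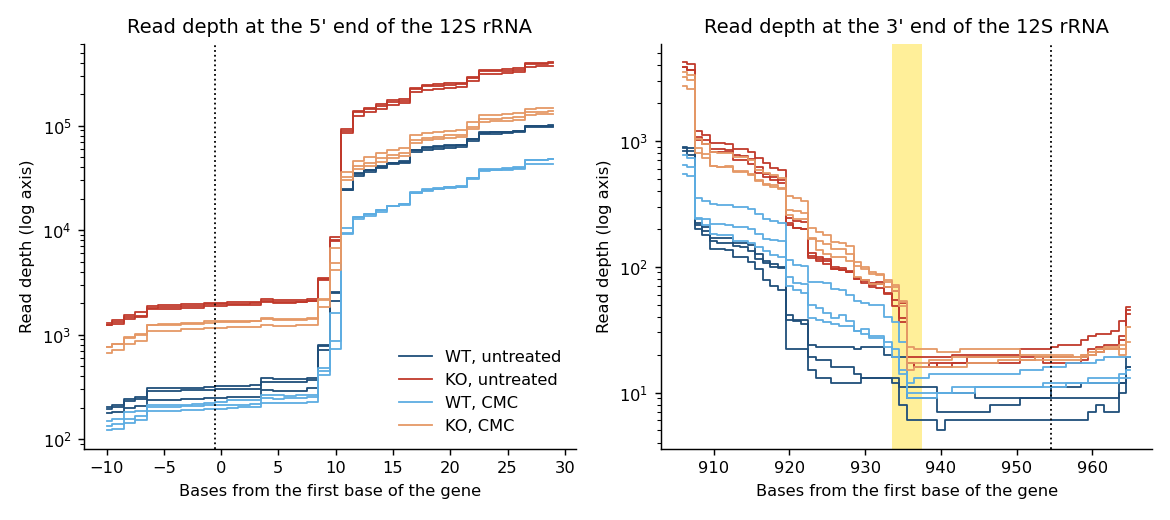
Read depth per library, on log axes, at the 5′ end (left) and the 3′ end (right) against the distance in bases from the first base of the gene. Dotted lines mark the ends of the gene and the yellow band the GGAA loop. In untreated libraries depth rises about 10-fold at 1 step near the 5′ end. In all libraries it falls to 5 to 22 reads between the loop and the end of the gene.

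Past the gene the order of the genotypes relative to the 12S level was the reverse of that before it. Over chrM:1025-1034, in mt-Tv, depth was 0.0062%, 0.0067% and 0.0087% of the 12S mean in untreated KO and 0.012%, 0.0092% and 0.015% in untreated WT. After CMC it was 0.0069%, 0.0078% and 0.0083% in KO and 0.018%, 0.024% and 0.017% in WT. The groups did not overlap. With 1 added to both depths, the log2 difference of KO minus WT was -0.83 (SE 0.20, limma adjusted p = 0.0137) untreated and -1.38 (SE 0.14, limma adjusted p = 4.33e-04) after CMC. The added 1 raises the shallower WT flanks by more than the KO flanks, and so widens these differences. In reads these bases held 17 to 37 in untreated KO and 6 to 12 in untreated WT, so the 3′ values rest on few reads.

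Deletions are bases of the reference that an aligned read lacks. They were rare: 0.00193%, 0.00194% and 0.00191% of bases in untreated KO and 0.00183%, 0.00163% and 0.00178% in untreated WT. After CMC they made up 0.00508%, 0.00437% and 0.00499% in KO and 0.00767%, 0.0093% and 0.005% in WT. Every CMC library lay above every untreated one, and WT CMC replicate 3 lay with the KO libraries rather than with its partners.

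The bases that carry the results on deletions are shown with their neighbours, the described bases in capitals. Where a base stands in a run of the same base or a repeat, the aligner's choice decides which copy is counted as deleted.
chrM:118-137: gcaaacctcCatagaccggt
chrM:153-183: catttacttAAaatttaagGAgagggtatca
chrM:260-279: aaacgaaagTttgactaagt
chrM:325-344: tacgattaaCccaaactaat
chrM:393-413: aatccaactTAtatgtgaaaa
chrM:503-529: ccactatgcTtagccaTaaacctaaat
chrM:528-564: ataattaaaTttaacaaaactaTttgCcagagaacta
chrM:669-689: aattcagccTAtataccgcca

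The bases with the highest mean deletion shares were T678 and A679, T402 and A403, and T75. Both pairs open a short run of alternating T and A. At T678 deletions made up 0.0541%, 0.061% and 0.0518% of reads in untreated KO and 0.0561%, 0.046% and 0.0969% in untreated WT, and after CMC 0.185%, 0.2% and 0.212% in KO and 0.247%, 0.283% and 0.234% in WT. At T402 the share was 0.0408% ± 0.00225 (SD, n = 3) in untreated KO and 0.0296% ± 0.00402 in untreated WT, and 0.106% ± 0.0198 and 0.171% ± 0.0503 after CMC. CMC libraries lay above untreated ones at both places, in each genotype. T75 had 0 to 4 deletions per library at depths of 220 to 2140 reads.

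CMC raised deletions at many bases of the 12S rRNA, as it did along the mitochondrial genome. With at least 20 deletions in the libraries compared, 171 bases could be tested in WT and 110 of them rose (64.3%, against 66.6% of all positions tested), and 124 of 252 rose in KO (49.2%, against 48.4%). None fell. The median log2 change was 2.08 in WT, beside 2.09 over all positions. In KO it was 1.05, slightly below the median over all positions there. WT libraries were shallower over the gene, so the minimum of 20 deletions required a higher share of deletions in WT. The percentages and medians of WT and KO thus cover different bases and do not compare the size of the CMC effect between the genotypes. The 88 bases called in both genotypes were 80.0% of the WT calls and 71.0% of the KO calls. The shares called in the gene were thus close to those of the whole mitochondrial genome. With at least 100 deletions required, 38 and 55 bases were called.

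Nearly silent bases gave the largest changes among the bases tested. The minimum of deletions applied to the libraries of both groups together. A base nearly silent when untreated was thus tested only where CMC libraries supplied most of its deletions. A large rise at such a base is therefore partly a product of this choice. C127 had 4, 0 and 1 deletions in untreated KO and none in 468382 reads of untreated WT, and 109, 84 and 87 in KO and 33, 42 and 33 in WT after CMC. Its share after CMC was 0.0286% ± 0.00298 (SD, n = 3) in KO and 0.0336% ± 0.00394 in WT. The KO change had a log2 value of 6.59 (SE 0.34, edgeR adjusted p = 8.92e-34), and in WT the share was at least 52.4-fold higher than the limit set by 3 counts over the untreated group. T519 went from 0.000673% ± 0.000421 to 0.0241% ± 0.00653 in KO (log2 5.13, SE 0.26, edgeR adjusted p = 3.89e-34) and from 0.00079% ± 0.000329 to 0.0474% ± 0.0281 in WT (5.76, SE 0.60, edgeR adjusted p = 1.81e-10). The other bases with the smallest p were A162, A163, T512, G172 and A173. A173, for example, went from 0.0126% ± 0.0013 to 0.075% ± 0.00653 in KO and from 0.0142% ± 0.00356 to 0.0852% ± 0.0142 in WT.

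The rise was not limited to uridines, the bases at which pseudouridine can stand. In WT 41 of 53 tested T (77.4%) and 69 of 118 other bases (58.5%) were called, and in KO 42 of 77 T (54.5%) and 82 of 175 others (46.9%). Over all bases with enough depth, deletions per 10000 reads at T went from 0.216 ± 0.00165 (SD, n = 3) to 0.577 ± 0.0664 in KO and from 0.189 ± 0.0222 to 0.986 ± 0.362 in WT. At A they went from 0.232 ± 0.00363 to 0.535 ± 0.0402 in KO and from 0.214 ± 0.00607 to 0.805 ± 0.241 in WT. Averaged over the genotypes on the log2 scale, the rise was 3.64-fold at T, 3.67-fold at G, 2.94-fold at C and 2.90-fold at A. For each of the 4 bases the exact permutation test over the libraries of both genotypes gave a two-sided p = 0.005, the smallest it can give (adjusted p = 0.0189 over 34 tests of deletions, insertions and kinds of mismatch, chosen after the data were seen).

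**Figure D4:**
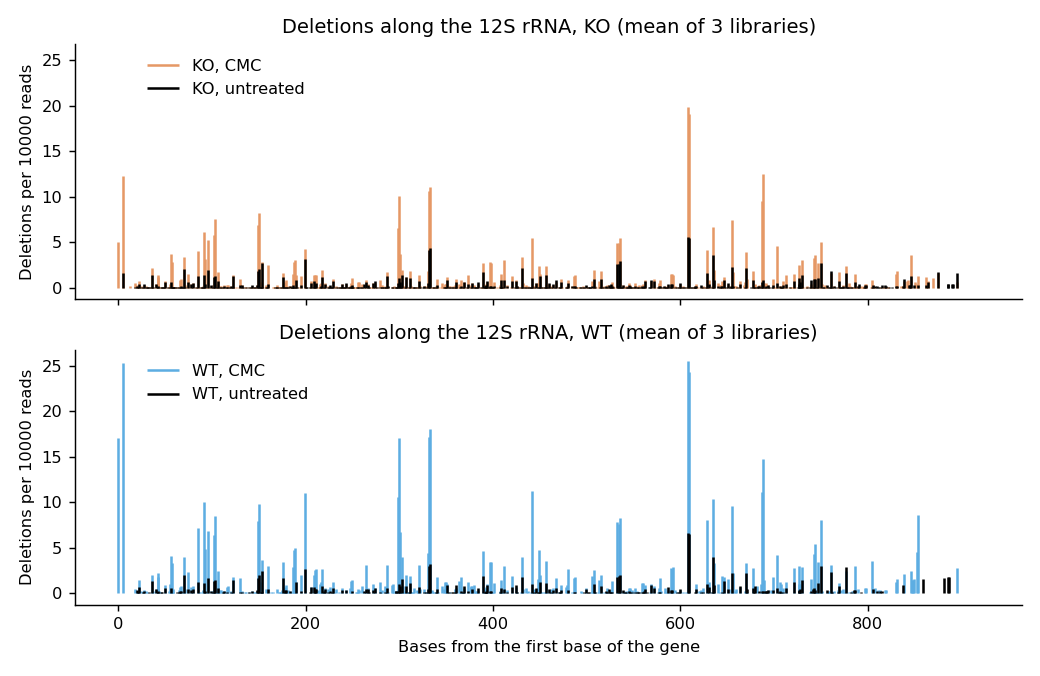
Deletions per 10000 reads at each base of the 12S rRNA with a depth of at least 100, mean of 3 libraries, against the distance in bases from the first base of the gene, for KO (upper) and WT (lower). Black lines are untreated and coloured lines CMC libraries; the tallest pair in the body of the gene, 608 and 609 bases from the first, is T678 and A679.

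Between KO and WT few bases differed in deletions. In untreated hearts 1 of 165 was called (0.606%, against 0.492% of all positions). It was C554, with 16, 15 and 12 deletions in KO and none in 450769 reads of WT, so the KO share of 0.00229% was at least 3.43-fold higher than the limit of 3 counts over the WT group (edgeR adjusted p = 0.0255). After CMC the shares at C554 were 0.00175% ± 0.000429 (SD, n = 3) in KO and 0.00146% ± 0.000249 in WT. C554 met the minimum of deletions through the KO libraries alone. The call at C554 was lost without KO untreated replicate 2 or 3 and without any of the 3 untreated WT libraries, and limma made none.

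After CMC 2 of 240 bases were called between KO and WT (0.833%, against 1.15% of all), T269 and C334, both lower in KO. T269 had deletions in 0.0429%, 0.0363% and 0.0483% of reads in KO and in 0.134%, 0.122% and 0.0745% in WT, a log2 fold change of -1.38 (SE 0.29, edgeR adjusted p = 0.0225). Untreated, its shares were 0.0319%, 0.0272% and 0.0364% in KO, against 0.0342%, 0.0227% and 0.0222% for WT. C334 had 0.00766%, 0.00686% and 0.0102% in KO and 0.0344%, 0.0434% and 0.0152% in WT after CMC (log2 -1.92, SE 0.42, edgeR adjusted p = 0.0232). At both bases WT rose after CMC while KO moved little, and WT CMC replicate 3 lay between its partners and the KO libraries. The count of 2 was 0 without any 1 of the KO CMC libraries or WT CMC replicate 1 or 2, 58 without WT CMC replicate 3, 0 with limma and 16 with all 12 libraries in 1 edgeR fit.

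The CMC effect on deletions differed between the genotypes at 4 of 278 bases (0.661% of all positions were called), each with a lower effect in KO. They were T269 (log2 difference of effects -1.64, SE 0.38, edgeR adjusted p = 0.00954), C334 (-2.33, SE 0.61, adjusted p = 0.0352), T550 (-2.02, SE 0.53, adjusted p = 0.0352) and T537 (-1.80, SE 0.49, adjusted p = 0.0481). At T550 the shares after CMC were 0.00883%, 0.00906% and 0.00846% in KO, against 0.0353%, 0.0373% and 0.00779% for WT, so WT CMC replicate 3 lay just below the KO values. At T537 the KO libraries had 0.00833%, 0.00548% and 0.00493%, beside 0.0227%, 0.0229% and 0.00534% for WT. The count fell to 0, 1 or 2 when any 1 library other than WT CMC replicate 3 was left out, and was 22 without that library.

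Mismatch shares overlapped between untreated KO and WT. Over the gene they made up 0.1126% to 0.1173% of bases in untreated KO and 0.1088% to 0.1249% in untreated WT. No base reached a mean share of 1% in any group. Between KO and WT 0 of 429 bases were called untreated (0.0698% of all positions; 10 bases at an unadjusted p below 0.05) and 0 of 485 after CMC (0.0332% of all; 21 at an unadjusted p below 0.05), by limma as by edgeR.

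The highest mean shares lay at C907, C904, G296, G491 and T438, and at none of these did CMC or the genotype pass the test. G296, G491 and T438 had 0.441% to 0.621% mismatches in the group means, mostly G296T, G491T and T438A, and for each the share on reverse reads (0.911%, 0.774% and 1.06%) was well above that on forward reads (0.175%, 0.191% and 0.272%). Positions are counted along chrM of mm10. C907 and C904, whose neighbourhood is shown above, stand close to each other near the 3′ end of the well covered part. At C907 mismatches were 0.821% ± 0.0668 (SD, n = 3) in untreated KO and 0.764% ± 0.121 in untreated WT.

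C904T was the substitution with the largest gap between the genotypes among these 5 bases. Its share was 0.507%, 0.484% and 0.569% in untreated KO and 0.82%, 0.848% and 0.788% in untreated WT. After CMC it was 0.493%, 0.477% and 0.409% in KO and 1.29%, 0.686% and 0.832% in WT. Each KO library was thus lower than each WT library, with and without CMC. Because C904T was singled out for its gap, this separation is partly a product of the choice. WT CMC replicate 1, at 1.29%, also had the highest mismatch share of all libraries over the gene, 0.1731%. C904T made up 90.4% of the mismatches at this base in untreated KO and 95.8% in untreated WT, and over all libraries mismatches there were 0.937% of forward and 0.499% of reverse reads. The log2 odds of all mismatches at C904 differed by -0.59 (SE 0.13, limma adjusted p = 0.466) untreated and by -0.88 (SE 0.28, limma adjusted p = 0.858) after CMC, and so did not pass the test over all positions. In counts this was 140 to 155 mismatches per library in untreated KO and 45 to 51 in untreated WT, so the precision in WT is limited.

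CMC raised mismatches at cytidines. In WT 17 of 491 tested bases were called (3.46%, against 2.63% of all positions) and in KO 14 of 444 (3.15%, against 2.45%), and all rose. The minimum mean share of 0.1% applied to both groups together. A base below it when untreated was thus tested only where CMC libraries raised the mean. C473, for example, had 0.0971% in untreated WT and 0.0972% in untreated KO. A rise at such a base is therefore partly a product of this choice. The 12 bases called in both genotypes were 70.6% of the WT calls and 85.7% of the KO calls. Of the called bases 15 in WT and 13 in KO were C, and G176 was called in both. The WT count was 0 when any 1 of its 6 libraries was left out, whereas the KO count was 12 to 16. For the difference of the CMC effects 0 of 465 bases were called (0.0111% of all positions; 16 bases at an unadjusted p below 0.05).

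At the named cytidines the rise lay mainly in C-to-T changes. The line below shows in capitals G296, named above for its share, and C305 and C319, called in both genotypes.
chrM:287-329: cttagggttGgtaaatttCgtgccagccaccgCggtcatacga
C305T went from 0.0347%, 0.0358% and 0.0265% to 0.211%, 0.209% and 0.201% in KO, and from 0.0273%, 0.025% and 0.0355% to 0.219%, 0.184% and 0.235% in WT. No CMC library overlapped an untreated one. C319T went from 0.0264% to 0.213% in KO and from 0.0308% to 0.218% in WT, as group means. Over all mismatches C305 had a log2 odds change of 1.21 in KO (SE 0.08, limma adjusted p = 0.00409) and 1.29 in WT (SE 0.15, limma adjusted p = 0.0361). G176, the base called in both genotypes that is no C, changed mainly through G176A, which went from 0.0113% to 0.166% in KO and from 0.0116% to 0.199% in WT.

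Along the whole gene the same kind of change rose. C-to-T mismatches per 10000 reads at C went from 2.51 ± 0.0271 (SD, n = 3) to 7.0 ± 0.184 in KO and from 2.47 ± 0.0428 to 7.63 ± 0.542 in WT, over 184 cytidines. This was a 2.93-fold rise on average (two-sided exact permutation test over libraries within genotype, p = 0.005, adjusted p = 0.0189 over the 34 tests). G-to-A rose 1.44-fold and T-to-C 1.24-fold, each with the same p and adjusted p. The other 9 kinds did not pass (adjusted p = 0.085 or more). C-to-A, for one, stood at 10.3 ± 0.237 and 9.99 ± 0.345 in KO and at 10.2 ± 0.76 and 10.3 ± 0.613 in WT. WT CMC replicate 1 stood apart, with 8.27 A-to-T and 6.44 T-to-G mismatches per 10000 reads against at most 4.06 and 2.01 in its partners.

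**Figure D5:**
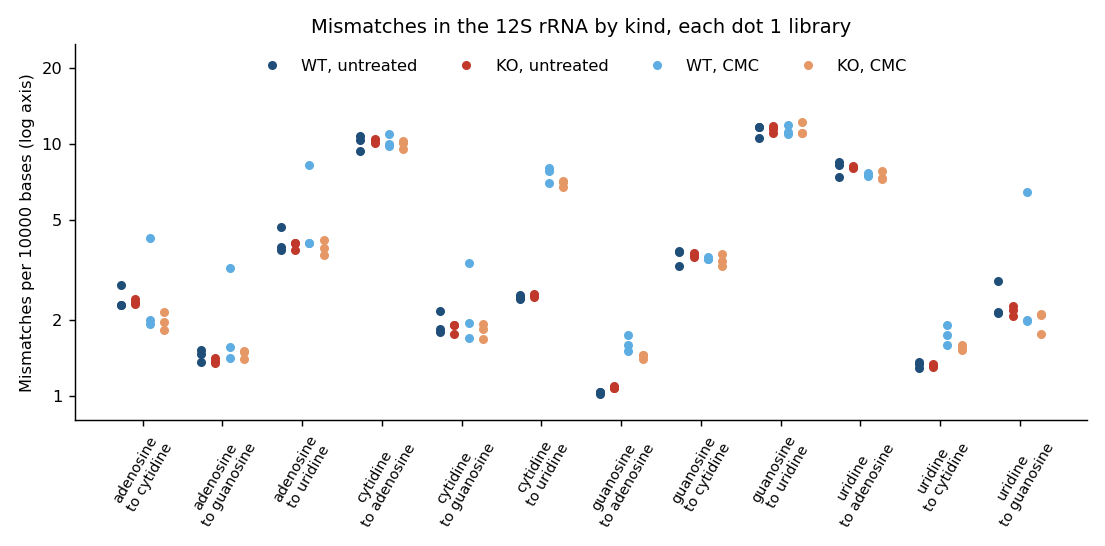
Mismatches per 10000 reads, by kind of change, over bases of the 12S rRNA with a depth of at least 100 in all libraries, on a log axis. Each dot is 1 library; cytidine to uridine stands at about 2.5 in untreated libraries and 7.0 to 7.63 in the CMC group means, while cytidine to adenosine stays near 10.3.

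Insertions were rarer than deletions. They made up 0.0286 ± 0.00066 (SD, n = 3) per 10000 reads in untreated KO, 0.0313 ± 0.00147 in untreated WT, 0.0325 ± 0.00129 in KO after CMC and 0.0405 ± 0.00366 in WT after CMC. They were higher after CMC (1.21-fold) and lower in KO (1.17-fold), both with p = 0.005 in the two-sided exact permutation test (adjusted p = 0.0189). The highest mean shares lay at T161, T298, G409, T139 and A173. At A173, also a base of called deletions, insertions went from 0.00326% ± 0.000833 to 0.0155% ± 0.000869 in KO and from 0.00232% ± 0.000204 to 0.02% ± 0.00171 in WT. T161 had 0.0185% ± 0.000832 and 0.0209% ± 0.000728 untreated in KO and WT, and single bases were not tested for insertions.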

How the data were processed

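Gene counts were raw counts per gene as deposited by the authors, and the per-base tables, deposited as pysamstats writes them, held counts of covering reads and of each kind of difference from the reference. The tools named, per the submitters' processing notes, are DESeq2 1.16.1, featureCounts 1.5.1, SAMtools 1.5 and HISAT2 2.0.5, with mm10 and without their roles. The authors' deposited comparison table gives a log2 fold change and a p-value per gene, of which the p-value was not used. Whether counting used strand is not stated.

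Gene positions came from GENCODE M21, whose mt-Rnr1 transcript equals the reference bases of the per-base tables. The quasi-likelihood test of edgeR 4.0.16 (R 4.3.3) was run after filterByExpr and TMM scaling, with calls at an adjusted p below 0.05; p-values were adjusted by Benjamini-Hochberg over all features tested throughout. Relative depth and steps (1 added) and log2 odds of mismatches (0.5 added, mean share of at least 0.1%) were tested with limma 3.58.1, and deletions (at least 20) with edgeR and depth as offset. These tests of single bases used mitochondrial positions with a depth of at least 100 in each library. Flanks were tested with limma as the mean depth of the 10 bases outside a gene end over that of the gene (1 added), with no depth minimum. Positions were called at an adjusted p below 0.05 and a difference of at least 0.5 (relative depth), 0.2 (steps) or 1 (mismatches and deletions) on the log2 scale; neighbouring bases share reads. Each comparison used its 6 libraries. Scripts were tested on simulated data. Shares have counting error beside the spread given: at T269, for example, 80 deletions gave a 95% exact (Clopper-Pearson) interval of 0.0253% to 0.0397%, which covers counting error only, since reads without molecular identifiers are not independent molecules.

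Named were, for each measure and comparison, up to 5 called positions with the smallest p, of which runs are given by their range, the 5 highest mean shares, the ends, the extreme windows and the members of the list of 12S factors called in untreated hearts with the most abundant others; those called after CMC were named afterwards. The tests of a difference of CMC effects at single bases, which name T537 and T550, and C904T, G176 and C319 among the substitutions were chosen after the values were seen. The members and lists were chosen with earlier results of these data known. Alternatives were DESeq2 1.42.0, other scalings, filters and pseudocounts, all 12 libraries in 1 fit, a replicate block and leaving out each library.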

Additional observations from a re-analysis of the deposited data

Results flagged for a closer look

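These values were singled out because the CMC effect differed between KO and WT in a test of the difference itself, in a fit of all 12 libraries chosen after the data were seen. For deletions the log2 effect in KO minus that in WT was -1.64 at T269, -2.33 at C334, -1.80 at T537 and -2.02 at T550. For relative depth the largest differences were -0.78 in chrM:650-724, -0.83 in chrM:979-985 and 0.55 in chrM:901-902. The WT CMC libraries spread widely in the first 2 runs, from 0.405 to 0.618 and from 0.00245 to 0.00424. At chrM:979-985 depth in untreated WT was only 109 to 208 reads. WT CMC replicate 3, which stood apart from its partners over nuclear genes, lay nearer to the KO libraries at the 4 deletion sites; its part in these values was not tested.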

How the results depend on the processing

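No result reversed its direction, and the calls of KO against WT in counts and at both flanks held under each alternative, with log2 values of 1.92 to 1.94 and 1.94 to 2.00 in counts when 1 library was left out. CMC against untreated in counts lost its call in WT with nuclear library sizes (-0.18) and the replicate block (-0.19) and in 4 of the 6 fits that left out 1 library (all 6 gave -0.22 to -0.17), and in KO with all 12 libraries (-0.14). Called positions for relative depth were 4 (KO against WT untreated), 122 (after CMC) and 188 (CMC in KO) when scaled by the median, and 9 after CMC with the replicate block. For steps over 5 bases each side they were 10, 3, 20 and 22 in the order KO against WT untreated and after CMC, CMC in WT and in KO. Mismatches after CMC had 0 calls in WT and KO with a mean share of at least 1%, since few bases reach it, and 0 in WT with the replicate block. Deletions of KO against WT had 0 calls untreated with at least 100 deletions, limma, all 12 libraries or the replicate block, and after CMC 0 with limma and 16 with all 12 libraries. With at least 100 deletions CMC gave 38 in WT and 55 in KO. With 1 library left out the counts ran from 4 to 13, 9 to 158 and 43 to 98 for relative depth (KO against WT untreated, after CMC, CMC in WT), 0 to 2, 0 to 3 and 0 to 6 for steps, 0 for mismatches of CMC in WT, and 0 to 1 and 0 to 58 for deletions of KO against WT. For the difference of CMC effects they ran from 46 to 172 for relative depth, 0 to 9 for steps and 0 to 22 for deletions. The cause of these changes was not tested except where fewer bases could be tested. Same-numbered libraries did not deviate together (correlations of -0.049 to 0.010 over 12772 nuclear genes), so the replicate numbers were not taken as pairs. Of the 955 bases, 29 to 39 per comparison had too little depth to be tested singly.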
